A study of Mus musculus with 9 samples.

Results

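BAP1 binding at the promoters of noncoding genes was described from the 1 list of BAP1 peaks in Ba/F3 cells, a murine B cell precursor line that grows on interleukin-3. A peak was counted when its middle lay within 1 kb of a transcription start site (TSS) of a GENCODE M1 gene that is not protein-coding, and over 1 kb from every TSS of a protein-coding gene. 268 of the 13164 peaks met this rule, or 2.04% (95% Wilson interval 1.81 to 2.29), and they are called noncoding-only peaks here. The other peaks were 9805 within 1 kb of a coding TSS (coding promoter peaks) and 3091 over 1 kb from every TSS (distal peaks). All coordinates are on mouse build mm9 (NCBIM37).

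The list was made from 2 immunoprecipitations, anti-BAP1 in WT Ba/F3 cells and anti-FLAG in a Ba/F3 line with a stable construct for murine BAP1 that carries a triple FLAG tag, each sequenced 1 time. The tagged protein is thus made from an introduced construct and not from the cells' own gene. The series has 9 samples in all, and its 3 H2AK119ub samples (WT and the CRISPR-Cas9 knockout clones KO3 and KO4) were not analysed here. Each peak is an interval of 200 bp with no height or score, and the depth of the samples is unknown. The spread between replicates therefore cannot be measured, no p-value is given, and the intervals cover counting error over peaks or genes of 1 list only.

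BAP1 is a deubiquitinase that removes ubiquitin from histone H2A, a mark laid down by Polycomb complexes, and it works in a complex with ASXL proteins and HCF1. Noncoding promoters differ in the polymerase and factors they use. Long intergenic noncoding RNAs (lincRNA) and host genes of small RNAs are transcribed by RNA polymerase II like coding genes. The spliceosomal U RNAs have compact promoters read by RNA polymerase II, except U6, which RNA polymerase III transcribes, and their upstream element often carries an octamer motif that is also known from immunoglobulin promoters.

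The sequences of 11 noncoding-only peaks are shown to let the promoters of the gene types be compared by eye. The Spata5l1, Hist2h3c2 and CT573034.1 peaks lie 2, 31 and 104 bp from a coding start in RefSeq, a later annotation, so they are noncoding by the GENCODE M1 label only. 5 of the 11 are the peaks nearest to the TSS among the named genes of their gene type, and Malat1, Neat1, U2, U6, U3 and Mirlet7i were added after their values were seen. Each is written 5' to 3' on the strand of the noncoding gene. Capitals mark exact matches, on either strand, to the octamer ATGCAAAT, the ETS motif CCGGAA, the GC box GGGCGG, the NRF1 motif GCGCATGC, the CCAAT box CCAAT, the TATA box TATAAA, the RUNX motif TGTGGT and the YY1, CRE, E2F and AP-1 motifs spelled out with the motif counts. Matches that overlap run together as 1 stretch of capitals.
Malat1 (processed_transcript), chr19:5802509-5802708, minus strand: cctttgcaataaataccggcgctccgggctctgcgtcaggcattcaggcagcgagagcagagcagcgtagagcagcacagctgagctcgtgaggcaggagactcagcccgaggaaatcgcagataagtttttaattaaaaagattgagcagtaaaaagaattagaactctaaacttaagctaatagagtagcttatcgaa
Neat1 (processed_transcript), chr19:5845446-5845645, minus strand: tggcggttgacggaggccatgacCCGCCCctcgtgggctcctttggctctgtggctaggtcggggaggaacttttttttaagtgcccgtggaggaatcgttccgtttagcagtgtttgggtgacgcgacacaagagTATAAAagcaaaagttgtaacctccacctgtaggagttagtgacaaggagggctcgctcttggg
Trmt61b (lincRNA), chr17:71948011-71948210, minus strand: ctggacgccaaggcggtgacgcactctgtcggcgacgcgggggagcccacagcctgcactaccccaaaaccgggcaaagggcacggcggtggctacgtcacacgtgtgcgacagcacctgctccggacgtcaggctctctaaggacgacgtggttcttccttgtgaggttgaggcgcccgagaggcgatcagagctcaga
Spata5l1 (processed_transcript), chr2:122456263-122456462, plus strand: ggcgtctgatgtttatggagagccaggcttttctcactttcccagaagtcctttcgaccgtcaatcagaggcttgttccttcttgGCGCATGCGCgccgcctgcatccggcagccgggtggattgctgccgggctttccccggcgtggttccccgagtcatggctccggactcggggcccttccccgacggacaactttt
U2 (snRNA), chr11:101502822-101503021, plus strand: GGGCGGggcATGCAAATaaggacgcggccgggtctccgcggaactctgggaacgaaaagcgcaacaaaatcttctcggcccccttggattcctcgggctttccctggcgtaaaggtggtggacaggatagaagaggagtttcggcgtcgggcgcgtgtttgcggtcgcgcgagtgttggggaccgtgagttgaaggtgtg
U6 (snRNA), chr12:53704457-53704656, plus strand: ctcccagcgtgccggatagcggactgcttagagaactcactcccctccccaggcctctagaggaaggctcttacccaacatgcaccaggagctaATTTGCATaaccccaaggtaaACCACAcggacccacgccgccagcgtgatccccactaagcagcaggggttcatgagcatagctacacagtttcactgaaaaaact
U3 (snoRNA), chr11:87256526-87256725, plus strand: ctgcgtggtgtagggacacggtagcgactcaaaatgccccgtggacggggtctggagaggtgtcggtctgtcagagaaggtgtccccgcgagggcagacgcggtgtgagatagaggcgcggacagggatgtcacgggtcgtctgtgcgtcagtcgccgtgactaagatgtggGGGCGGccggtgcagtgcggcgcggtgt
Telomerase-vert (misc_RNA), chr3:96218754-96218953, minus strand: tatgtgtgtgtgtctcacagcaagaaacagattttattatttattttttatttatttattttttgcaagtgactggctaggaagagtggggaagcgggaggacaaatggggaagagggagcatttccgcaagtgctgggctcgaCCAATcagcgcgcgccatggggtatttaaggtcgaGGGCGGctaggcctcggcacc
Mirlet7i (miRNA), chr10:122422881-122423080, minus strand: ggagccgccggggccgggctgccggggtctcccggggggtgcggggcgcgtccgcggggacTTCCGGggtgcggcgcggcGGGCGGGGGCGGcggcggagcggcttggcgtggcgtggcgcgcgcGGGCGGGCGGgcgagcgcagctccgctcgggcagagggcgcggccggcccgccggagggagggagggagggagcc
CT573034.1 (miRNA), chr13:62484538-62484737, plus strand: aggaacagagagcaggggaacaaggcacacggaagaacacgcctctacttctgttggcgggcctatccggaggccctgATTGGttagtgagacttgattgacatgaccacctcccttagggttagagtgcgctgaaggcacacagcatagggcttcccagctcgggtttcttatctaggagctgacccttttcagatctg
Hist2h3c2 (pseudogene), chr3:96042919-96043118, minus strand: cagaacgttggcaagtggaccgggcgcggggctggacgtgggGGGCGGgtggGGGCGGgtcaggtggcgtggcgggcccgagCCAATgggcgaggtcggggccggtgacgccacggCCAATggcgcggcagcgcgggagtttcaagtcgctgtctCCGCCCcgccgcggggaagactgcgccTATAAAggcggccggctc

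The U2 peak opened with a GC box and an octamer 3 bases apart, and the U6 peak had the octamer near its middle on the opposite strand. The let-7i peak was 87.0% G and C, with 2 stretches of adjoining or overlapping GC boxes. Both snRNA peaks shown hold the octamer, which most snRNA peaks did not. The Malat1 and Trmt61b peaks held none of these motifs.

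Most noncoding genes with BAP1 at their promoter shared it with a coding gene. Of 14906 genes that are not protein-coding, 910 had any peak within 1 kb of a TSS, which is 6.1% against 39.6% of protein-coding genes. 251 had a noncoding-only peak, which is 1.68%, and 10 of these also had a coding promoter peak. Of the 1096 peaks within 1 kb of a noncoding TSS, 828 (75.5%, 72.9 to 78.0) also lay within 1 kb of a coding TSS. The 268 noncoding-only peaks had 227 nearest noncoding genes on 20 chromosomes, and 27 of them lay within 1 kb of more than 1 noncoding gene.

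By the nearest TSS, lincRNA genes held 93 of the noncoding-only peaks (34.7%, 29.3 to 40.6) and genes of the class processed_transcript, a mixed group of other long transcripts, held 62 (23.1%, 18.5 to 28.5). Small nuclear RNA (snRNA) genes held 41 (15.3%, 11.5 to 20.1), pseudogenes 32 (11.9%, 8.59 to 16.4), small nucleolar RNA (snoRNA) genes 18, miRNA genes 14 and the class misc_RNA, other small RNAs, 6. The last 2 peaks lay at the 5S-type rRNA gene n-R5s113, 202 bp upstream, and at the T cell receptor segment Trbv1, 167 bp upstream, which is a coding segment that falls under the rule by its class name. No gene of M1 has antisense as its type, but the nearest transcript was of type antisense for 22 peaks (8.21%), all of them at processed_transcript genes.

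**Figure D1:**
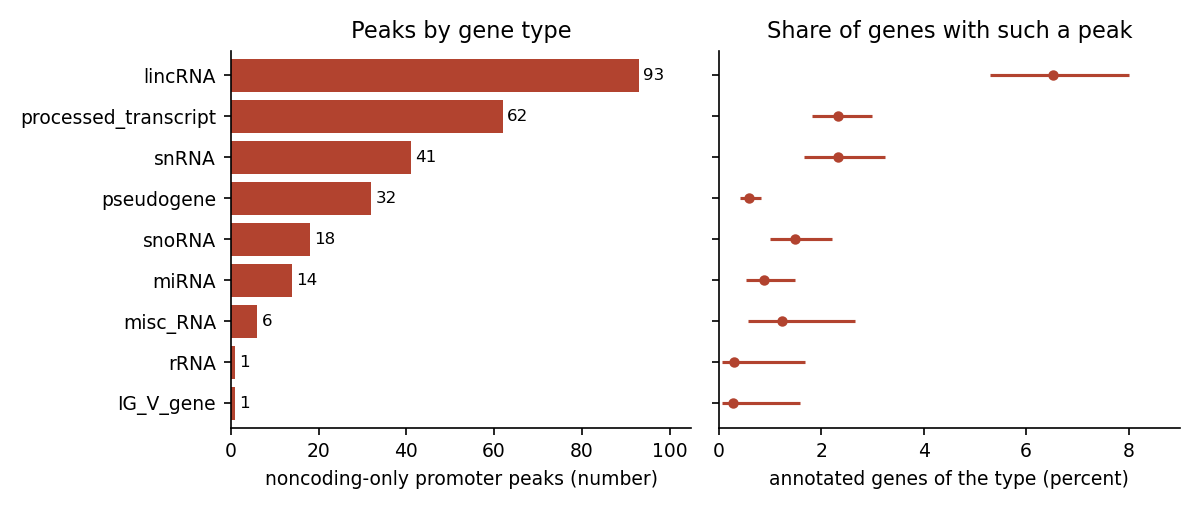
Left, number of noncoding-only peaks by the type of the nearest noncoding gene; right, percent of annotated genes of each type with such a peak, with 95% Wilson intervals. lincRNA genes led on both, with 93 peaks and 6.52% of 1273 genes, whereas pseudogenes had 32 peaks over 5201 genes.

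Measured against the number of annotated genes, the order changed. 83 of 1273 lincRNA genes had a noncoding-only peak (6.52%, 5.29 to 8.01) against the 1.68% of all such genes. The shares were 2.33% of 2572 processed_transcript genes (1.82 to 2.99) and 2.32% of 1423 snRNA genes (1.66 to 3.24), whose intervals overlap. They were 1.48% of snoRNA genes (0.990 to 2.21), 0.888% of miRNA genes (0.530 to 1.48) and 0.577% of pseudogenes (0.404 to 0.822). Of the rare classes, 1.23% of misc_RNA, 0.301% of rRNA and 0.282% of variable segment genes had such a peak, and no further rRNA or variable segment gene had a peak of any kind. Counting peaks shared with coding promoters as well, 32.8% of lincRNA genes and 9.1% of processed_transcript genes had a peak, against 4.12% of miRNA, 3.74% of snoRNA, 3.37% of snRNA, 2.46% of misc_RNA and 1.38% of pseudogene records. The interval for lincRNA genes, 30.3 to 35.5, ended below that of protein-coding genes, 38.9 to 40.2.

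The label noncoding was checked against RefSeq, a later annotation, by gene symbol or older symbol. 142 of the 251 genes matched, 85 of them as lncRNA and 23 as protein-coding. The latter were the nearest genes of 27 peaks, with 12 at processed_transcript genes such as Oaz2, 11 at genes that M1 calls pseudogenes and 4 at lincRNA genes. Among those 11 were the peaks of Cebpd, a C/EBP transcription factor, Frat1, an inhibitor of GSK3, the linker histone gene H1f0 and the histone H3 gene Hist2h3c2. RefSeq coding starts were also placed on mm9 by an exact, single match of the 50 bases around them, which worked for 19857 of 21263 promoters. 25 noncoding-only peaks (9.33%, 6.40 to 13.4) lay within 1 kb of such a start and 243 did not. These were 8 processed_transcript, 6 lincRNA, 6 pseudogene, 4 miRNA and 1 snoRNA peaks, and no snRNA peak. They lie near a coding start in the later annotation, although some of the noncoding genes there, such as Mir1956 and Mir1932, are noncoding in RefSeq too. 11 of the 27 peaks at genes matched as protein-coding, among them those of Cebpd and Mafg, were not among the 25. They stay in the 243. The M1 pseudogene record Mafg shares its symbol with a coding gene of M1, the only 1 of the 251 genes that does. Its match by symbol can therefore belong to that coding gene, and it is left in these counts. A coding start that could not be placed could not be found in this way, so 25 is a lower limit. The results without the 25 stand with the alternative settings.

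The spliceosomal U genes other than U6 held upstream peaks at similar positions. 32 noncoding-only peaks lay nearest to 22 genes of U1, U2, U4, U5, U11 and U12, the RNA cores of the major and minor spliceosome. 21 of these peaks lay upstream of the gene start and the rest downstream. The middle of 20 lay 80 to 220 bp upstream, a window that was not set in advance. Positions are given as the middle of the peak minus the TSS, so that negative values lie upstream. U1, which pairs with the 5' splice site, had 12 peaks at 9 genes, from -218 to 649 bp. U2, which pairs with the branch point, had 8 peaks at 5 genes, from -216 to 444 bp. U5, which holds the exon ends, had 8 peaks at 5 genes, from -214 to 195 bp. U11 of the minor spliceosome had 2 peaks, at -128 and 84 bp, U4 had 1 at -126 bp and U12 had 1 at 310 bp.

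U5 apart, a minority of the copies of each large family carried a peak. Any peak was present at 6 of 10 U5 genes (60.0%, 31.3 to 83.2), 5 of 51 U2 genes (9.80%, 4.26 to 21.0), 10 of 206 U1 genes (4.85%, 2.66 to 8.70) and 17 of 936 U6 genes (1.82%, 1.14 to 2.89). Most copies of U1 and U6 in the annotation are known to be pseudogene copies. Some of the U2, U1 and U5 copies with a peak lay in stretches of 4 or more noncoding-only peaks with gaps of at most 50 kb, and no U6 gene did. 4 U2 genes with 7 peaks spanned 54 kb at chr11:101465848-101519877, 5 U1 genes with 7 peaks spanned 41.5 kb at chr12:55798318-55839850, and 3 U5 genes with 5 peaks spanned 21.4 kb on chromosome 4. Another stretch, of 49 kb, at chr11:87236070-87285083 held 10 peaks at U1 genes and at U3 genes. Chromosome 11 had 46 noncoding-only peaks among its 1128 peaks (4.08%, 3.07 to 5.40) against 2.04% genome-wide.

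Peaks at some small RNA genes came as a pair with 1 on either side of the start. The U2 gene shown above had peaks at -140 and 444 bp, and another U2 gene had them at -145 and 82 bp. Of 42 snRNA and snoRNA genes nearest to a noncoding-only peak, 14 (33.3%, 21.0 to 48.4) had peaks on both sides, against 8 of 136 lincRNA and processed_transcript genes (5.88%, 3.01 to 11.2). The difference was 27.5 percentage points (95% Newcombe interval 14.0 to 42.8). Many of the small RNA genes are copies that share their sequence, so they are not independent, and the interval does not allow for this. Among 7960 nearest genes of coding promoter peaks the share was 12.1%. Each peak was set against its own nearest TSS, so in genes with several starts the 2 sides can belong to different starts. All 4 bound U3 genes, which encode the snoRNA that guides early cleavage of ribosomal RNA, had such a pair, with upstream peaks between -152 and -113 bp and downstream peaks between 85 and 166 bp. Snord118, the gene of U8 snoRNA, had peaks at -158 and 204 bp.

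**Figure D2:**
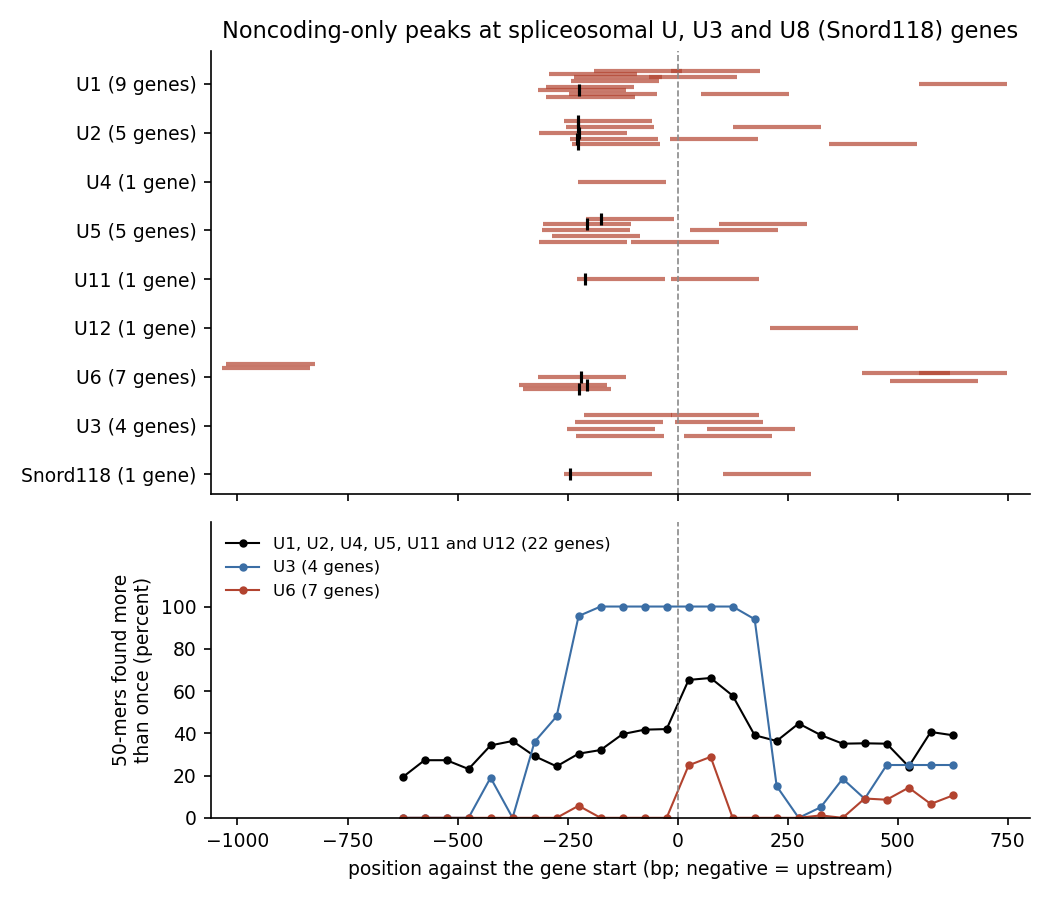
Upper panel, noncoding-only peaks (red bars, 200 bp each) at U1, U2, U4, U5, U11, U12, U6, U3 and Snord118 genes, 1 line per gene, with octamers as black ticks; lower panel, percent of 50-mers that occur more than once in the genome, in bins of 50 bp. 14 of the 34 genes have peaks on both sides of the start, the octamers sit between -244 and -175 bp, and for the 22 spliceosomal genes other than U6 repeated sequence is highest inside the gene.

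Repeated sequence lay beside these positions and in some of the peaks themselves. Over the 22 genes of U1, U2, U4, U5, U11 and U12, 65.7% of the 50-mers in the first 100 bp of the gene occurred more than once in the genome, against 27.4% at 200 to 300 bp upstream. Reads were paired and 50 bases long, and a 50-base read inside such a stretch has more than 1 exact place unless its mate sets it. At the 4 U3 genes the values were 100% and 71.8%, and 82.1% or more of the 50-mers of every U3 peak were repeated. Over the 7 U6 genes they were 26.9% and 2.86%. At the 22 genes, bins centered 125 and 75 bp upstream, nearer to most upstream peaks, had 39.6% and 41.7%. All upstream U1 peaks except those at -199 and -218 bp consisted of repeated 50-mers throughout, and these had none. The part of repeated sequence in the pairs of peaks was not tested.

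The octamer was found in 13 of 41 snRNA peaks (31.7%, 19.6 to 47.0), 0.520% of coding promoter peaks, 0.809% of distal peaks and 1 of 155 lincRNA and processed_transcript peaks. In windows of 200 bp centered on the 5' ends of annotated genes it was present at 0.948% of coding and 2.35% of noncoding genes, but these windows end 100 bp upstream and do not reach the element of U genes. This motif was added after the gene types were seen. It stood at -229 to -224 bp in all 5 U2 genes, at -223, -220 and -205 bp in 3 U6 genes, and at -211 bp in the U11 gene. Over 14 small RNA genes with a noncoding-only peak it lay between -244 and -175 bp. Between 150 and 300 bp upstream, 15 of 33 snRNA genes with a noncoding-only peak had the octamer (45.5%, 29.8 to 62.0), against 22 of 1375 snRNA genes with no peak (1.60%, 1.06 to 2.41). Tandem copies share their sequence, so these genes are not independent, and the window was chosen from the same peaks. Most genes with no peak were U6 and U1 records (919 and 196), families whose copies are mostly pseudogene copies. The contrast therefore cannot be told apart from one between genes and pseudogene copies. Seen from the sequence, 20 of 42 snRNA genes with the octamer had a peak (47.6%, 33.4 to 62.3) and 28 of 1381 without it (2.03%, 1.41 to 2.91). By family, the octamer was there at 5 of 5 U2 genes with a noncoding-only peak and 4 of 46 with no peak. The counts were 3 of 7 and 13 of 919 for U6, and 2 of 5 and 1 of 4 for U5. The U5 difference of 15 percentage points has an interval of -38.1 to 57.2 that holds 0. Genes whose peaks were all shared with a coding TSS are in neither group. The 33 genes include some within 1 kb of a peak but not nearest to it, such as AC120136.1 and U6atac. A peak can therefore count for more than 1 gene. U1 had the octamer there at 1 of 9 genes with a noncoding-only peak and 0 of 196 with none, so most bound U1 genes lacked these letters.

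The 7 U6 genes with a noncoding-only peak split by position. 3 had it at -260, -251 or -218 bp and an octamer at -223 to -205 bp, and the other peaks lay 519 to 936 bp away from the start. Other small RNAs of known function had single genes with a peak. Telomerase-vert, the RNA template of telomerase (Terc), had peaks at -72 and 181 bp, 1 of them printed above with a CCAAT box at -25 bp and a GC box at 10 bp. A Y_RNA gene had a peak at -177 bp, Scarna2, a guide RNA of Cajal bodies, at -76 bp, and Snord104 at -142 bp. 2 of 331 genes named 7SK, most of them copies of the RNA that holds the elongation factor P-TEFb inactive, had a noncoding-only peak. None of the 18 genes named RNaseP_nuc had a peak, which allows a share of up to 16.7% when the limit is set at 3 counts. In the large family SNORA17, 3 of 611 genes had a peak.

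Several well-known long noncoding RNAs had BAP1 at their own promoter. Malat1 and Neat1 are abundant nuclear RNAs, the latter the scaffold of paraspeckles, and they are neighbors on chromosome 19. Malat1 had peaks at -61 and 31 bp and Neat1 at -172 and -68 bp, and the 4 peaks lay within 43.2 kb. Dleu2, the host gene of miR-15a and miR-16, was the only noncoding gene with 3 noncoding-only peaks, at -651, -147 and 810 bp from its starts. Mir17hg, the host of the proliferative miR-17 cluster, had 1 at -699 bp. The snoRNA host genes Snhg7, Snhg5, Snhg4 and Snhg12 each had 1 peak, at -22, -33, -47 and -49 bp, so that it covered the TSS.

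A list of known noncoding RNAs was checked with or without a peak. Of 42 gene records found by symbol, 10 had a noncoding-only peak, 5 had a peak shared with a coding TSS and 27 had none within 1 kb. Over all genes that are not protein-coding, 1.68% had a noncoding-only peak and 6.1% any peak. The list was chosen with earlier results of these data known, so the contrast is descriptive only. Its records include several each for let-7 and Mir181, and Snhg11, which M1 labels protein_coding. 15 of the 54 names on the list could not be matched by symbol or RefSeq name. Among these were Terc and Cyrano, which are described here as Telomerase-vert and Oip5os1 and are not in the tally. The shared ones were Gas5 (with Zbtb37), Snhg1 (Slc3a2), Snhg3 (Rcc1), Snhg9 (Rps2) and Tug1 (Morc2a). Those with none included Xist, Tsix, H19, Meg3, Rian, Airn, Pvt1 and Miat. Over the imprinted genes Meg3, Rian and Mirg on chromosome 12 the nearest peak was 473059 to 567654 bp away. Under older symbols, Ftx, a gene of the X inactivation center, had noncoding-only peaks at 45 and 507 bp, Dancr had 1 at -31 bp and Epb41l4aos 1 at -101 bp, whereas Jpx of the same center, Hotair and Hottip had none. RefSeq names also identified Snhg17 at 5 bp, Oip5os1 (Cyrano) at -5 bp and Firre at -78 bp, which were named after their values were seen.

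10 of 14 peaks at miRNA genes lay over 400 bp from the annotated start, which for a miRNA is the 5' end of the hairpin and not the start of its primary transcript. The mature sequences of some of these miRNAs are given from RefSeq (GRCm38.p6), which held 6 of the 13 miRNA genes, with the seed, bases 2 to 8, in capitals.
mmu-let-7i-5p: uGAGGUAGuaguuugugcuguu
mmu-miR-142a-5p: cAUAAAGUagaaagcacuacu
mmu-miR-142a-3p: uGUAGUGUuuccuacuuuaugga
mmu-miR-7b-5p: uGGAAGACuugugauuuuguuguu
mmu-miR-760-3p: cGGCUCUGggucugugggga

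No seed was shared among these 5. The gene of let-7i had peaks at -566 and -201 bp. The other let-7 genes looked up, Mirlet7a-1, Mirlet7b, Mirlet7c-1, Mirlet7c-2, Mirlet7d, Mirlet7f-2 and Mirlet7g, had none within 1 kb. Its nearest coding TSS was 90215 bp or more away. Mir142, a miRNA gene of blood cells, had 1 peak at -106 bp with an AP-1 motif at -170 bp, and Mir7b had 1 at -785 bp. Mir155, Mir21 and the 6 Mir181 genes had none. 4 of the miRNA peaks lay near the start of a coding gene in RefSeq, among them that of Mir1956 at 14 bp from Eif4e and that of Mir1932 at 116 bp from Rnf213.

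The rule has 2 limits. Just inside the limit to coding TSSs were Gm10516 at 1001 bp from Rcor3, 4831440E17Rik at 1016 bp from Mll3 and Mir1956 at 1063 bp from Eif4e. Just outside were the peaks at 4930481B07Rik at 909 bp from Zfp687, 2010109K11Rik at 898 bp and Gm4117 at 867 bp from Vcan. On the other limit, 9330133O14Rik, 2010003O02Rik and Gm13765 lay inside at 998, 987 and 970 bp, and Gm15724, C030014I23Rik and Gm2529 outside at 1003, 1009 and 1029 bp.

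Most noncoding-only peaks lay upstream of the start. 192 of 268 (71.6%, 66.0 to 76.7) were upstream, against 70.0% of coding promoter peaks (difference 1.60 percentage points, -4.15 to 6.74). They were further from it, with a median of -76 bp and quartiles of -166 and 35.5 bp, against -29 bp (-76 and 8) for coding promoter peaks. 111 (41.4%, 35.7 to 47.4) covered the TSS, against 71.4% of coding promoter peaks (difference -29.9 percentage points, -35.7 to -23.9). Coding genes have more annotated starts (a mean of 3.13 distinct TSSs per gene against 1.70 for the nearest noncoding genes), which makes a near TSS more likely. With 1 start per gene for both, the shares that covered it were 39.5% and 62.2%, and the difference was -22.6 percentage points (-28.5 to -16.5). The shares upstream were then 69.8% and 60.8%, a difference of 9.0 percentage points (3.05 to 14.4) whose interval no longer holds 0.

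**Figure D3:**
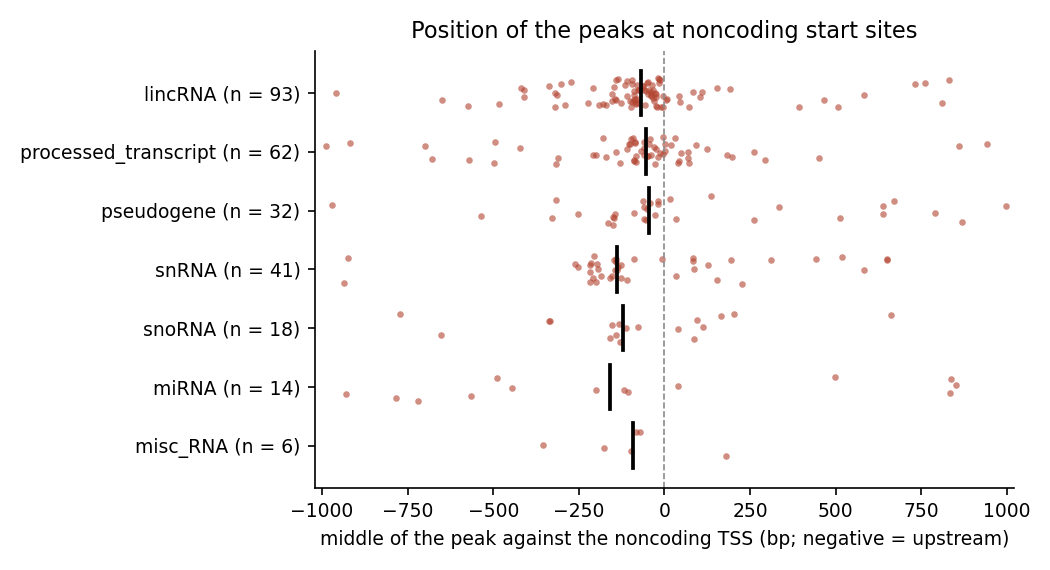
Middle of each noncoding-only peak against the nearest noncoding TSS in bp, for gene types with 6 or more peaks; black bars are medians and points are spread vertically to keep them apart. lincRNA and processed_transcript peaks cluster just upstream, with medians of -67 and -54.5 bp, and snRNA and snoRNA peaks further up, at -139 and -121.5 bp.

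The median position was -67 bp for lincRNA, -54.5 bp for processed_transcript and -45.5 bp for pseudogene peaks. It was -139 bp for snRNA and -121.5 bp for snoRNA peaks. For miRNA peaks it was -159.5 bp, with quartiles of -547 and 385 bp that span most of the window.

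Noncoding-only peaks lay at various distances from coding genes. The nearest coding TSS was 1001 to 297506 bp away, with a median of 16241.5 bp. It lay within 5 kb for 56 peaks (20.9%, 16.5 to 26.2) and over 50 kb for 38 (14.2%, 10.5 to 18.9). 49 peaks (18.3%, 14.1 to 23.3) stood inside a coding gene, against 49.8% of coding promoter peaks and 36.3% of distal peaks (difference from the latter -18.0 percentage points, -22.6 to -12.7). The rule and the gene types fix part of this, since coding promoter peaks lie at coding genes and lincRNA genes are defined as intergenic. Of the 49, 25 had the noncoding gene on the strand opposite to the host. The U3 genes lay inside Tex14, on chromosome 11. The nearest coding TSS had its own peak for 112 noncoding-only peaks (41.8%, 36.0 to 47.8), and a coding promoter peak lay within 5 kb of 30 (11.2%). Any other peak lay within 500 bp of 25.7% of noncoding-only peaks, 29.3% of coding promoter peaks and 6.86% of distal peaks. The difference from coding promoter peaks was -3.54 percentage points, with an interval of -8.50 to 2.08 that holds 0, and from distal peaks 18.9 (13.9 to 24.5).

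CpG content stood between that of coding promoters and that of distal sites. A window of 1 kb around the peak was called CpG-island-like when at least 50% of its bases were G or C and its CpG ratio, the number of CpG dinucleotides over the number expected from its bases, was at least 0.6. This held for 134 of 268 noncoding-only peaks (50.0%, 44.1 to 55.9), 82.8% of coding promoter peaks and 12.7% of distal peaks. The differences were -32.8 percentage points (-38.8 to -26.8) and 37.3 (31.2 to 43.3). The median CpG ratio was 0.658 (95% interval of the median 0.620 to 0.697), 0.771 and 0.284 in the same order.

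**Figure D4:**
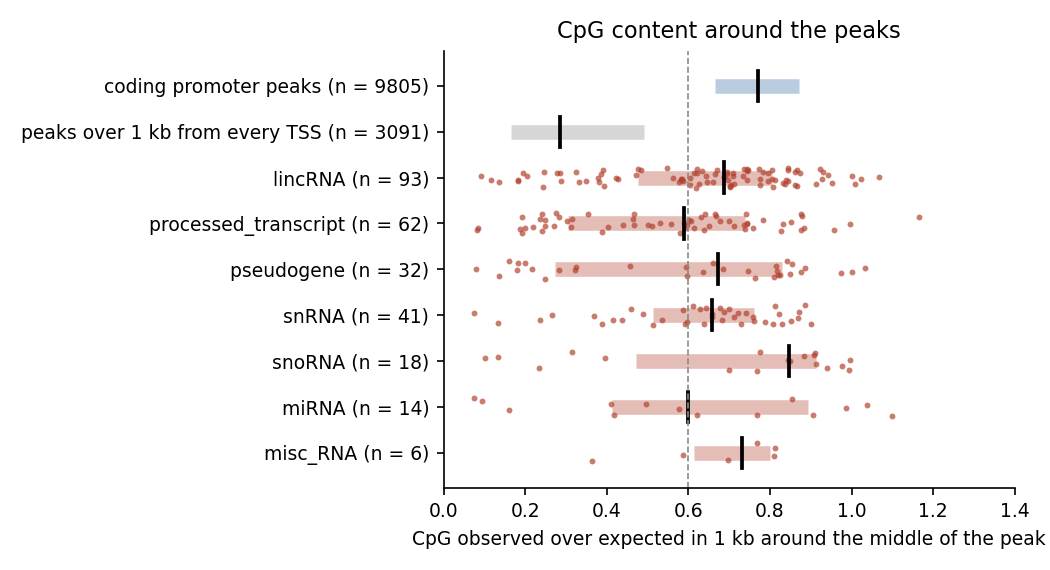
CpG observed over expected in 1 kb around the middle of the peak, with the median (black), the quartiles (wide bar) and, for noncoding-only peaks, each peak as a point; the dashed line is the limit of 0.6. lincRNA peaks alone spread from 0.0910 to 1.07, on both sides of the limit.

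By class, 55 of 93 lincRNA peaks (59.1%, 49 to 68.6) and 13 of 18 snoRNA peaks (72.2%, 49.1 to 87.5) were CpG-island-like, against 25 of 62 processed_transcript peaks (40.3%, 29 to 52.7) and 17 of 41 snRNA peaks (41.5%, 27.8 to 56.6). The intervals of the classes overlap. The CpG ratio was 1.04 and 1.10 at the 2 Mirlet7i peaks. It was 1.02 at Snhg5, 0.956 at Mir17hg, 0.651 and 0.588 at Malat1, and 0.417 at Mir142.

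In 41 of 268 noncoding-only peaks (15.3%, 11.5 to 20.1) at least 50% of the 50-mers occurred more than once in the genome, against 1.20% of coding promoter peaks and 17.5% of distal peaks. The share was 8 of 18 for snoRNA (44.4%), 11 of 32 for pseudogene (34.4%) and 13 of 41 for snRNA peaks (31.7%), but 2 of 93 for lincRNA peaks (2.15%, 0.592 to 7.51) and 5 of 62 for processed_transcript peaks (8.06%, 3.49 to 17.5). Peaks at Malat1, Neat1, Dleu2, the Snhg genes named above, Telomerase-vert and Mirlet7i had no repeated 50-mer. The n-R5s113 peak consisted of repeated 50-mers throughout.

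Short motifs were counted in the 200 bp of each peak, on both strands, as exact letters. The GC box was found in 50.0% of noncoding-only peaks (44.1 to 55.9) against 69.1% of coding promoter peaks, and the ETS motif in 14.9% (11.2 to 19.7) against 29.9%. Both differences had intervals below 0, at -19.1 percentage points (-25.2 to -13.1) and -14.9 (-18.8 to -10.1). The reverse held for the AP-1 motifs TGACTCA and TGAGTCA, in 5.22% against 1.77%, for RUNX in 11.2% against 6.55%, and for the TATA box in 8.96% against 2.23%. The shares in distal peaks were 6.76%, 12.6% and 12.3%. The intervals of the differences from distal peaks hold 0 for AP-1 (-3.83 to 1.92 percentage points), RUNX (-4.82 to 3.12) and the TATA box (-6.41 to 0.868).

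**Figure D5:**
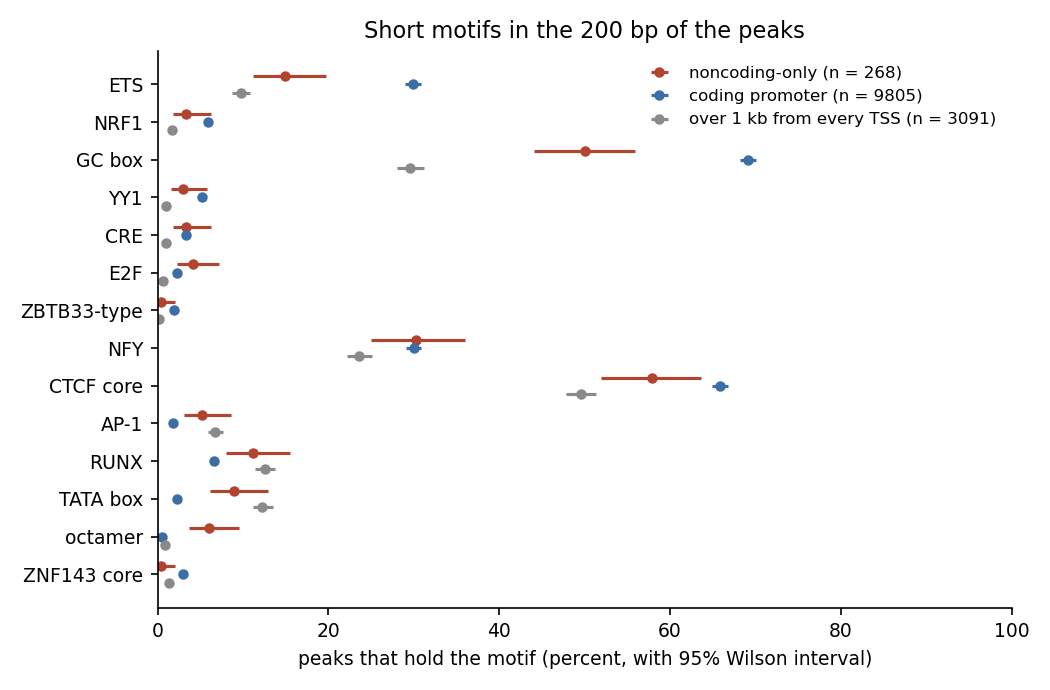
Percent of peaks that hold each of 14 motifs in their 200 bp, with 95% Wilson intervals, for noncoding-only (red), coding promoter (blue) and distal (grey) peaks. Noncoding-only peaks stand between the other sets for ETS and the GC box and above both for the octamer.

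Of the 14 motifs, the interval of the difference from coding promoter peaks lay below 0 for 4, above 0 for 5 and held 0 for 5. The other pair below 0 was CCCTC, the core letters of the CTCF motif, in 57.8% against 65.8%, and ACTACAA, the core of the ZNF143 motif, in 1 noncoding-only peak (0.373%) against 2.99%. The E2F motifs TTTCCCGC and TTTGGCGC were in 4.10% against 2.24%, with a lower bound of 0.0364 percentage points. NRF1, YY1 (AAGATGGC), CRE (TGACGTCA), the ZBTB33-type motif CTCGCGAG and the CCAAT box were those whose intervals held 0. TGACTCA and TGAGTCA are each other's reverse complement, so they count as 1 motif. In windows of 200 bp around the 5' ends of all noncoding genes, the GC box was found in 8.87%, ETS in 4.51% and the TATA box in 11%, and around those of coding genes in 40.0%, 14.8% and 8.19%.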

How the data were processed

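Reads of 50 bp paired-end ChIP-Seq were mapped by the authors to mm9 with Bowtie 1.0.0, and peaks were called with MACS 1.4.2 against input DNA, per the submitters' processing notes. The deposited file holds 13164 intervals with a start, an end and a name and no other value per the file headers, each 200 bp wide; the threshold and the rule that joined the 2 samples are not given in the sources used here. 0 columns of single samples were left unmatched.

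Middles of peaks (start plus 100 bp) were set against all transcript starts of GENCODE M1 (37273 genes, 22367 protein-coding, mitochondrion left out). Shares have 95% Wilson intervals and differences 95% Newcombe intervals. Peaks of 1 list are not replicates. Sequences came from NCBIM37, which is not masked here, so repeats were counted as 50-mers found more than once. GENCODE M1 has no antisense gene type, so the transcript type was used. Names and coding starts came from RefSeq (GRCm38.p6).

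Named were a list of known noncoding RNAs, the small RNA genes and the genes nearest to a peak in each other type, those with 3 or more noncoding-only peaks, and the 3 peaks on either side of each limit. The octamer, the ZNF143 core, the octamer window, RefSeq coding starts and the count without repeated sequence were added after seeing the data, and the members and lists were chosen with earlier results of these data known. The scripts were tested on simulated data: 3000 of 3000 distances equaled those of bedtools, 7550 of 7550 planted 50-mers were counted, and the intervals held the true value in 1909 (Wilson) and 1894 (Newcombe) of 2000 draws. Python 3.11.15, numpy 2.4.6, pandas 2.3.3, scipy 1.17.1 and numba 0.67.0 were used. Sequences were shown for gene types with 6 or more peaks, and 2 of those chosen by the rule are not reported here.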

Additional observations from a re-analysis of the deposited data

How the results depend on the processing

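12 results were recomputed under 10 changes of setting each where a value could be had, and the CpG-island-like share under 2 more. Of these values, 100 stayed within the interval of the reported value, or for the number of peaks within 1.5 times, and 19 did not. Leaving out peaks with repeated sequence left 227 peaks, and keeping RefSeq coding starts 1 kb away left 243. Both were chosen after seeing the data, and neither moved any of the 12. The share of noncoding genes with a peak does not use the coding filter. The RefSeq setting and the setting with coding TSSs over 5 kb away could therefore not move it. The 12 do not include the pairs of peaks, the U genes or the octamer, which were not recomputed. The filter on repeated sequence took out 13 of 41 snRNA and 8 of 18 snoRNA peaks. The 243 peaks still include 11 nearest to genes matched by name to a protein-coding RefSeq gene, Mafg among them.

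Only genes of annotation level 1 or 2, which leaves out automatic entries such as most small RNA genes, gave 124 peaks, with shares of 50.0% processed_transcript, 18.5% antisense, 54% covering a TSS, 43.5% CpG-island-like and 12.9% inside a coding gene, and a median CpG ratio of 0.614. A window of 500 bp gave 26.5% within 5 kb of a coding TSS, 56.6% CpG-island-like and 4.97% of noncoding genes with a peak, and one of 2 kb gave 34.6% covering a TSS and 7.78% of genes. Merging peaks gave 49.8% covering a TSS. With 1 TSS per gene, 33.1% lay inside a coding gene and 56.7% were CpG-island-like, and with coding TSSs over 5 kb away 12.3% lay inside a coding gene. Without pseudogenes, 8.63% of noncoding genes had a peak. The 200 bp of the peak gave 59.3% CpG-island-like, and limits of 0.75 and 55% gave 20.1%. Beyond the narrower or wider selection itself, the cause was not tested. The share of pseudogenes without pseudogenes, the share within 5 kb under the 5 kb limit and the antisense share with 1 TSS per gene have no value. No paired analysis was possible because the list pools both samples. The depth is unknown, so a promoter with no peak is not shown to lack BAP1.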

Other observations

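The list carries no score, but its peaks are numbered, and their order followed the distance to a TSS: the median distance to any TSS was 4 bp in the first 500 places, 70 bp in places 5001 to 5500 and 924.5 bp in places 9501 to 10000. Over the 9805 coding promoter peaks, Spearman's rho between the place and the distance to the nearest coding TSS was 0.734, given as a description of sites in 1 list. The paper ranked its sites by their distance to the nearest gene TSS. The median distance rose from each bin of 500 places to the next, to 144034 bp in places 13001 to 13164. The numbers thus follow such a ranking, so a rho with the place was largely set in advance and says nothing about binding. Over the 41 snRNA peaks rho with the distance to the coding TSS was 0.699 and with the distance to their own start -0.095, with a median place of 11261. Over the 93 lincRNA peaks the values were 0.095 and 0.441, with a median place of 8422. For the same reason, the values of each class depend on the TSSs that the ranking used and are not results about the class.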
